A study of Mus musculus with 8 samples.

Results

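The membrane-spanning 4-domains subfamily A (Ms4a) genes encode small proteins that cross the plasma membrane several times. The 7 members described here, *Ms4a4a*, *Ms4a4b*, *Ms4a4c*, *Ms4a6b*, *Ms4a6c*, *Ms4a6d* and *Ms4a7*, were taken by gene symbol from the 53819 genes of the count table, and all 7 had enough counts to be among the 13722 genes tested. They were measured by RNA sequencing in bone marrow-derived macrophages (BMDM) of 4 female BALB/cJ mice aged 8 weeks. Macrophage colony-stimulating factor (M-CSF, 25 ng/mL) was used to differentiate marrow for 5 days, and each mouse then gave 1 culture treated with 2.5 µM bilirubin and 1 treated with DMSO vehicle for 48 h, so that 8 libraries formed 4 pairs. No culture carried a transgene or deletion, and all cultures shared the same M-CSF differentiation. The comparison asks what bilirubin, a product of heme breakdown, does to macrophage gene expression.

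MS4A proteins lie in the plasma membrane and often sit beside other receptors, whose signaling or trafficking they modify. The best known relatives are *Ms4a1*, which encodes the B cell antigen CD20, and *Ms4a2*, which encodes the beta chain of the high-affinity IgE receptor of mast cells. Many genes of the *Ms4a4*, *Ms4a6* and *Ms4a7* branches are expressed in myeloid cells, although *Ms4a4b* encodes a T cell protein. Several genes of these branches respond to interferon.

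Bilirubin raised *Ms4a7* 1.65-fold, and no other member passed the test. The next gene along the chromosome, *Ms4a14*, which is outside the 7 members, rose 1.52-fold. The 3 closely related *Ms4a6* genes together held a summed level of 326.2 ± 16.1 CPM with vehicle and 329 ± 24.7 CPM with bilirubin (SD, n = 4 each). CPM is the count of a gene relative to the size of its library, scaled by the TMM method of edgeR.

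The family lies in 1 cluster on chromosome 19 (build GRCm39, GENCODE annotation), which spans 679 kb from *Ms4a10* to *Ms4a3* and holds 40 annotated genes, of which 22 are protein-coding. *Ms4a14* (chr19:11278613-11291818) and *Ms4a7* (chr19:11298403-11313510) are neighbors on the minus strand with 6.58 kb between them. After a gap of 39.3 kb come *Ms4a4a* (chr19:11352823-11370154), *Ms4a4c* (chr19:11382131-11404610), *Ms4a4b* (chr19:11412557-11444419), *Ms4a6c* (chr19:11446718-11462204) and *Ms4a6b* (chr19:11493876-11508620) on the plus strand. *Ms4a6d* (chr19:11563968-11582213) is again on the minus strand.

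How alike the members are bears on how well their reads can be told apart. The coding sequences of *Ms4a4b* and *Ms4a4c* were 91.7% identical with a longest shared run of 127 bases, and those of *Ms4a6b* and *Ms4a6c* were 85% identical with a run of 96 bases. *Ms4a6d* was 80.6% identical to *Ms4a6b* and 77% to *Ms4a6c*. *Ms4a7* stood apart, with 49.4% to 59.4% identity to the other members. The first 60 coding bases of the *Ms4a6* genes are shown because they let the reader see this closeness. Capitals mark the 12 positions at which the 3 genes are not all the same.

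Ms4a6b (chr19:11497703-11497762, plus strand): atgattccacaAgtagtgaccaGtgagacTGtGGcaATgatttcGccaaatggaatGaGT

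Ms4a6c (chr19:11448469-11448528, plus strand): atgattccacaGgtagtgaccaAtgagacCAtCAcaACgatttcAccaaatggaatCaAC

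Ms4a6d (chr19:11580597-11580656, minus strand): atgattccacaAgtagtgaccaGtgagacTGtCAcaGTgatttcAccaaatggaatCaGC

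Over these 60 bases *Ms4a6b* differed from *Ms4a6c* at 11 positions and from *Ms4a6d* at 6 positions, and *Ms4a6c* differed from *Ms4a6d* at 7 positions. Of all 31-base windows in the exons of each gene, 16.4% were shared with another gene of the cluster for *Ms4a4c*, 14.2% for *Ms4a6c*, 7.85% for *Ms4a4b*, 7.84% for *Ms4a6b* and 5.39% for *Ms4a6d*. For *Ms4a7* the share was 0.111%, and for *Ms4a4a* and *Ms4a14* no window was shared. The estimated counts followed this in part. Those of *Ms4a7* and *Ms4a14* were whole numbers within 0.01 in all 8 libraries, while those of *Ms4a6b*, *Ms4a6c* and *Ms4a6d* were fractional in all 8. Those of *Ms4a4b* and *Ms4a4c* were whole in 6 of 8 libraries, although *Ms4a4c* had the largest share of shared windows. These 2 genes had few counts, 7 to 13 and 29 to 91 in a library. Estimated counts of the *Ms4a6* genes can thus include reads divided between near-identical genes.

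Libraries held 34142781 to 47071714 counts on genes, with a median of 40742225. All 8 macrophage markers examined were present, at a summed 24100 to 24400 CPM with vehicle and 27400 to 30000 CPM with bilirubin, most of it *Lyz2*. Of the 8, 3 passed the test, *Lyz2*, *Adgre1* and *Itgam*, all higher with bilirubin, beside 4.49% of all tested genes called higher. The markers did not rise together, since *Cd68* was lower in 4 of 4 mice, with means of 1861 CPM with vehicle and 1664 CPM with bilirubin, without passing. Markers of B cells stayed at or under 0.615 CPM in sum, of T and NK cells at or under 0.727 CPM, and of mast cells at or under 0.0974 CPM. At 0 in every library were 5 of 6 mast cell markers, 3 of 7 T and NK cell markers and 1 of 5 B cell markers. Monocyte markers summed to 2.96 to 3.84 CPM with vehicle and 2.25 to 5.16 CPM with bilirubin. Stromal markers summed to 1.95 to 5.2 CPM and 1.89 to 5.39 CPM in the same order. Dendritic cell markers summed to at most 0.159 CPM with vehicle and to 0.189 to 0.585 CPM with bilirubin. The 7 neutrophil markers summed to 11.2 to 13.8 CPM with vehicle and 19.5 to 31.9 CPM with bilirubin, nearly all of it *S100a8*. Whether these differences between the groups had a part in the changes below was not tested. In bulk RNA a lower level from fewer cells of a type and one from less RNA per cell cannot be told apart.

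Levels between genes were compared as TPM, the authors' estimate of transcript abundance per length and per library, summed over the transcripts of each gene. With vehicle, *Ms4a6d* was the highest at 239.4 ± 11.3 TPM, followed by *Ms4a7* at 199.6 ± 9.86 TPM, *Ms4a6c* at 127 ± 8.77 TPM and *Ms4a6b* at 76.7 ± 7.29 TPM (SD, n = 4 each). *Ms4a4a* followed at 12.8 ± 3.87 TPM, *Ms4a4c* at 3.39 ± 0.346 TPM and *Ms4a4b* at 0.486 ± 0.398 TPM. No neighbors in this order overlapped in their ranges, the closest being *Ms4a6d*, from 227.5 to 252.8 TPM, and *Ms4a7*, from 190.8 to 213 TPM. With bilirubin this pair changed places, since *Ms4a7* ran from 308.3 to 338.8 TPM and *Ms4a6d* from 237.4 to 252.7 TPM. The order of the other 5 members stayed as it was, with 116.9 ± 28.9 TPM for *Ms4a6c*, 64.9 ± 15 TPM for *Ms4a6b*, 12.1 ± 5.86 TPM for *Ms4a4a*, 4.84 ± 2.09 TPM for *Ms4a4c* and 0.455 ± 0.363 TPM for *Ms4a4b*. *Ms4a7* supplied 29.1% to 31.5% of the summed TPM of the 7 members with vehicle and 37.2% to 44.5% with bilirubin. The sum itself was 615.7 to 701.4 TPM with vehicle and 693.1 to 830.5 TPM with bilirubin.

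**Figure D1:**
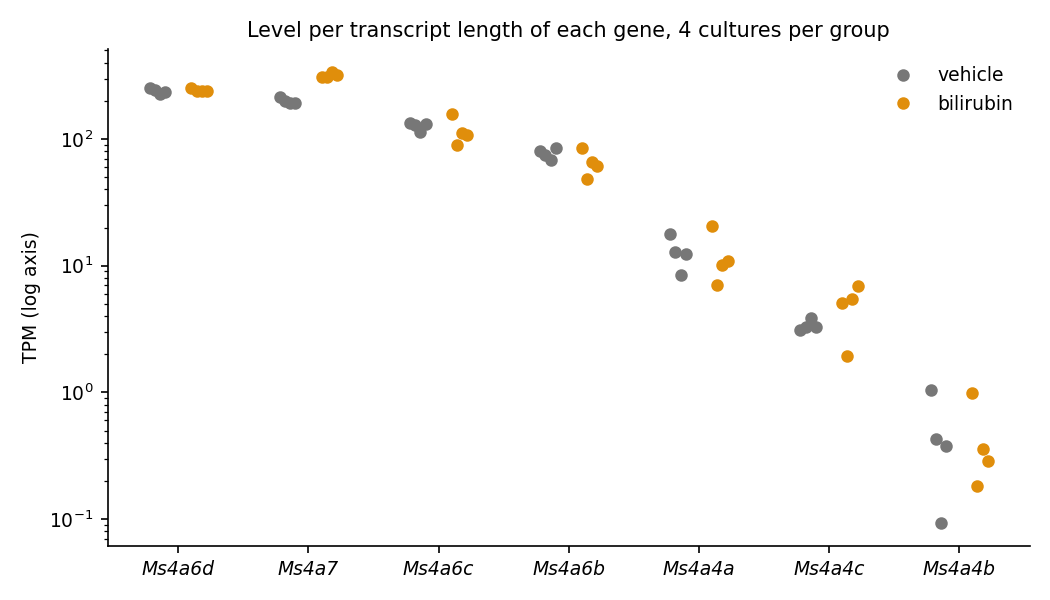
TPM of the 7 members on a log axis, with 1 point per culture, 4 vehicle and 4 bilirubin. *Ms4a6d* and *Ms4a7* are at the top and *Ms4a4b* at the bottom, with a mean of 0.486 TPM with vehicle, and *Ms4a7* lies below *Ms4a6d* with vehicle and above it with bilirubin.

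*Ms4a7* encodes a member of the family whose expression is largely restricted to macrophages and which marks macrophages at the borders of the brain. Its level with vehicle was 132.7, 130, 124.7 and 118.6 CPM in mice 1 to 4. With bilirubin it was 190.7, 205, 220.7 and 218.6 CPM in the same order. Every bilirubin culture was above every vehicle culture, and mice 3 and 4, the lowest with vehicle, were the highest with bilirubin. The means were 126.5 ± 6.22 CPM and 208.8 ± 13.9 CPM (SD, n = 4 each), and the log2 fold change was 0.72 ± 0.06 (SE), with an adjusted p of 2.75e-04 in edgeR's quasi-likelihood test. Within the mice the log2 changes were 0.52, 0.66, 0.82 and 0.88. Of all 13722 tested genes *Ms4a7* ranked 66th by p, while 171 of the 616 genes that rose had a larger log2 fold change. It passed under all 13 alternative settings, with log2 fold changes between 0.67 and 0.79.

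Among the 7 members, 1 was called higher and 0 lower, beside 7.53% of all tested genes called in either direction, 4.49% higher and 3.04% lower. The split over all genes was 616 higher and 417 lower with TMM scaling and 527 higher and 556 lower with library size alone. The only member with an unadjusted p under 0.05 was *Ms4a7*, which was also the only member called by DESeq2, by limma-voom and by limma-trend. The median log2 fold change of the 7 members was 0.02, beside -0.0018 for all tested genes. Vehicle and bilirubin cultures did not overlap for 1 of the 7 members and for 10.6% of all genes, and 1 of 7 was higher with bilirubin in all 4 mice, beside 14.5% of all genes.

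**Figure D2:**
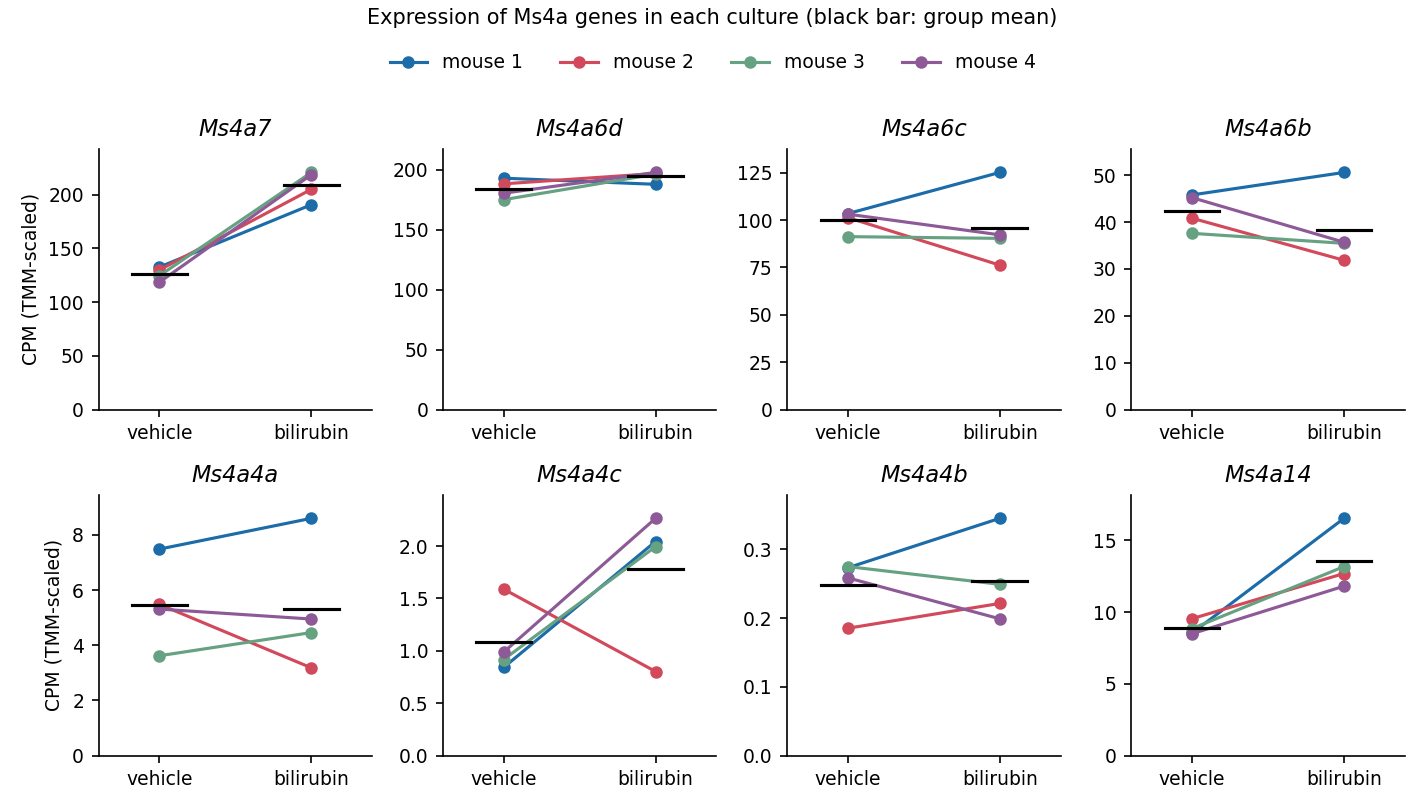
CPM of the 7 members and of the neighbor *Ms4a14* in the vehicle and bilirubin cultures of each mouse, with a line joining the pair of each mouse and a black bar at the group mean, all axes starting at 0. *Ms4a7* and *Ms4a14* go up in all 4 mice, and the lines of the other members lie flat, go down or cross.

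The *Ms4a7* transcripts came from a pair of coding isoforms in near equal shares. The longer (ENSMUST00000067532) has 702 coding bases and the shorter (ENSMUST00000056035) has 645. They differ by an exon of 57 bases, the third coding segment of the longer isoform, which keeps the reading frame. That exon is shown because it is the whole coding difference between the isoforms.

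Ms4a7, exon of the longer isoform (chr19:11303171-11303227, minus strand, GRCm39): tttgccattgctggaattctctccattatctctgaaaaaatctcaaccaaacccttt

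The longer isoform held 46.8% ± 3.05 of the gene's TPM with vehicle and 48.4% ± 3.7 with bilirubin, and the shorter held 49.3% ± 3.24 and 48.4% ± 2.99 (SD, n = 4 each). These shares differed between groups by less than the spread between cultures. In TPM the isoform with the exon went from a mean of 93.5 to 154.1, and the isoform without it from 98.4 to 154.2. The log2 ratios within mice 1 to 4 were 0.50, 0.62, 0.75 and 1.02 with the exon and 0.55, 0.65, 0.90 and 0.50 without it, positive in all 4 mice for both. Such shares are estimates from reads that the isoforms mostly have in common.

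*Ms4a14*, the neighbor of *Ms4a7*, rose as well, from a mean of 3.54 TPM with vehicle to 5.27 TPM with bilirubin, far below the level of *Ms4a7*. It was at 8.54, 9.54, 8.85 and 8.49 CPM with vehicle in mice 1 to 4 and at 16.5, 12.7, 13.2 and 11.8 CPM with bilirubin. The groups did not overlap, and the culture of mouse 1 was the highest with bilirubin, the reverse of *Ms4a7*, for which it was the lowest. The log2 fold change of *Ms4a14* was 0.61 ± 0.10 (SE), with an adjusted p of 0.00754 in edgeR's quasi-likelihood test. Without mouse 3 it was 0.61 (edgeR, adjusted p = 0.0667), so that the fold change stayed and the call was lost with 1 pair fewer. The changes of *Ms4a7* and *Ms4a14* within the mice differed by 0.12 ± 0.37 on the log2 scale (SD, n = 4), larger for *Ms4a7* in 3 of 4 mice, with a p of 0.625 in an exact two-sided sign-flip test, which cannot go below 0.125 with 4 pairs.

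The 250 bases before the annotated start of each of these genes are shown because both rose and lie side by side. They were taken from the RefSeq promoter table (build GRCm38.p6), and each was found at a single place on chromosome 19 of GRCm39, where its coordinates are given. Both major *Ms4a7* isoforms begin just inside the start used here. Capitals mark an AP-1 motif (TGANTCA).

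Ms4a7 (chr19:11313511-11313760, minus strand): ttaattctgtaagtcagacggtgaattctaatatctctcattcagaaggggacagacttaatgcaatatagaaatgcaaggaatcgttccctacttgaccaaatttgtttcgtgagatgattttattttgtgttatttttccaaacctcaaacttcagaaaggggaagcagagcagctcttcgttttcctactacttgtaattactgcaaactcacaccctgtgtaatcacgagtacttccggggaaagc

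Ms4a14 (chr19:11291819-11292068, minus strand): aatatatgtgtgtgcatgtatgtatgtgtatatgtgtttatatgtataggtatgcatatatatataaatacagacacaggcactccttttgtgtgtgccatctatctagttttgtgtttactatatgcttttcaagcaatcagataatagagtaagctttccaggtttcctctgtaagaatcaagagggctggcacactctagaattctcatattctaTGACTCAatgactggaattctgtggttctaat

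The motifs searched, on both strands, were AP-1 (TGANTCA), the interferon-stimulated response element core (GAAA, any 2 bases, GAAA), GAS (TTCNNNGAA), the E-box CACGTG, the PU.1 core (GAGGAAG) and NF-kB. The *Ms4a14* window held AP-1 at 32 to 26 bases before the start, and the *Ms4a7* window held none of the 6 motifs. A further *Ms4a7* window, before the start of a minor isoform farther inside the gene, held AP-1 at 81 to 75 bases before that start. AP-1 was found in 6.75% of 32851 promoter windows of this length, so its presence is a description of these letters. Of the other members in the table, *Ms4a4a* held NF-kB, found in 7.25% of windows, and *Ms4a4b*, *Ms4a4c*, *Ms4a6b* and *Ms4a6c* held none of the 6. The *Ms4a4c* window lies before the start of Ms4a4c-201. Bases before Ms4a4c-203, which starts farther upstream and held most of the gene's TPM, were not searched. *Ms4a6d* was not in the table.

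**Figure D3:**
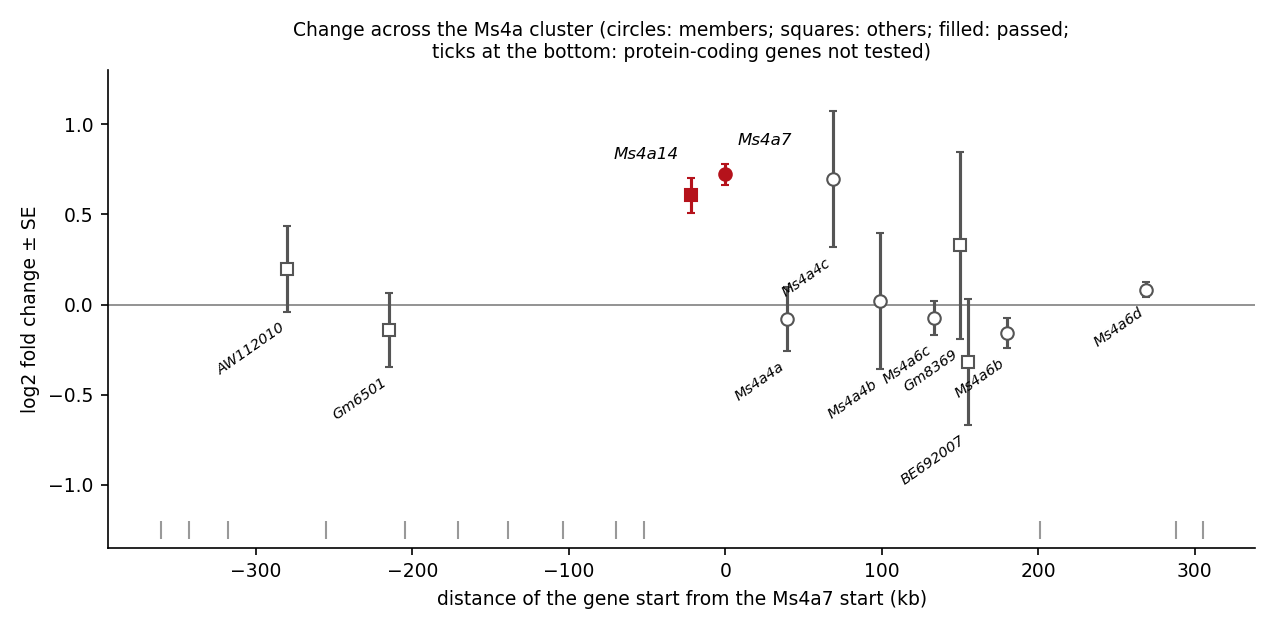
Log2 fold change (bilirubin over vehicle) with its SE for the tested genes of the cluster, placed by the distance of each gene's start from that of *Ms4a7* in kb. Circles are the 7 members, squares the 5 other tested genes and ticks the protein-coding genes not tested. Filled red marks show the adjacent *Ms4a7* and *Ms4a14*, which passed the test.

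Of the 12 tested genes of the cluster, *Ms4a7* and *Ms4a14* were the 2 that passed. Both rose, beside 4.49% of all tested genes called higher. The set of genes in the cluster was drawn from the annotation after the values had been seen. The members between *Ms4a7* and the *Ms4a6* genes, 39.3 kb and farther from *Ms4a7*, did not pass.

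*Ms4a6d* encodes a macrophage protein that is known to partner with the complement receptor VSIG4. It was at 192.9, 188.2, 175 and 180.4 CPM with vehicle in mice 1 to 4 and at 187.8, 196.8, 196.3 and 197.7 CPM with bilirubin. The groups overlapped through mouse 1, the only mouse with a lower value with bilirubin. Its log2 fold change was 0.08 ± 0.04 (SE), with an adjusted p of 0.32 in edgeR's quasi-likelihood test. Without mouse 1 it was 0.12 and passed (edgeR, adjusted p = 0.0407), a setting in which the genes called went from 1033 to 1910. Without mouse 2, 3 or 4 it was 0.09, 0.05 and 0.06 and did not pass (edgeR, adjusted p = 0.479, 0.708 and 0.655).

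*Ms4a6c* was at 103.4, 101.3, 91.3 and 103.1 CPM with vehicle and at 125.1, 76.2, 90.3 and 92.2 CPM with bilirubin. Bilirubin cultures thus lay both above and below all vehicle cultures, with mouse 1 at the top and mouse 2 at the bottom. For *Ms4a6c* the log2 fold change was -0.08 ± 0.09 (SE), with an adjusted p of 0.721 in edgeR's quasi-likelihood test.

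*Ms4a6b* was at 45.8, 40.8, 37.6 and 45.2 CPM with vehicle and at 50.6, 31.9, 35.5 and 35.7 CPM with bilirubin. Again mouse 1 was the only one with a higher value with bilirubin, and the groups overlapped. A log2 fold change of -0.16 ± 0.08 (SE) had an adjusted p of 0.34 in edgeR's quasi-likelihood test. Without mouse 1 it was -0.26 and passed (edgeR, adjusted p = 0.0113), a setting in which the genes called went from 1033 to 1910. Without mouse 2, 3 or 4 it was -0.09, -0.18 and -0.09 and did not pass (edgeR, adjusted p = 0.692, 0.508 and 0.72).

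Because reads of these genes are shared, *Ms4a6b*, *Ms4a6c* and *Ms4a6d* were also summed into 1 row before fitting, a step added after seeing the data. The sum had a log2 fold change of 0.01 ± 0.04 (SE), with an adjusted p of 0.927 in edgeR's quasi-likelihood test. Within mice 1 to 4 its log2 changes were 0.09, -0.12, 0.08 and -0.01. Across the 8 libraries *Ms4a6b* and *Ms4a6c* varied together, with a Pearson r of 0.952 on log2 CPM, whereas *Ms4a6d* had an r of -0.383 with *Ms4a6b* and -0.3 with *Ms4a6c*. The libraries share their mice and treatments, so these r describe 8 points and carry no test.

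For *Ms4a6b* and *Ms4a6c*, TPM is partly set by short annotated transcripts that retain an intron. Ms4a6b-202, a retained-intron transcript of 429 bases, held 60.4% ± 1.09 of the gene's TPM with vehicle and 57.3% ± 5.45 with bilirubin, while the coding Ms4a6b-201 held 32.7% ± 1.08 and 36.6% ± 5.31 (SD, n = 4 each). Ms4a6c-202, which also retains an intron, held 37.3% ± 0.906 and 35.6% ± 1.66, the rest being the coding Ms4a6c-201. In contrast, the coding Ms4a6d-201 held 94.4% ± 0.824 and 95.8% ± 2.54. For the low *Ms4a4b* the coding Ms4a4b-201 held 29.1% ± 47.4 and 13.7% ± 13.9 of TPM, nearly all the rest being retained-intron transcripts, and for *Ms4a4c* the 361-base coding Ms4a4c-203 held 65.7% ± 16.8 and 72.5% ± 5.44, so that the TPM of both also rest on short transcripts. The lncRNA *BE692007* overlaps *Ms4a6c* on the opposite strand, with at most 28 counts in a library, beside 2754 or more for *Ms4a6c*.

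*Ms4a4a* encodes a protein of alternatively activated macrophages that associates with the beta-glucan receptor Dectin-1. It was at 7.49, 5.48, 3.62 and 5.31 CPM with vehicle and at 8.6, 3.18, 4.46 and 4.95 CPM with bilirubin. Mouse 1 was the highest in both groups, and the mice differed more from each other than the treatments did. The log2 fold change was -0.08 ± 0.18 (SE), with an adjusted p of 0.858 in edgeR's quasi-likelihood test.

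*Ms4a4c*, known as an interferon-responsive gene of myeloid cells, was low. Its level was 0.841, 1.59, 0.917 and 0.988 CPM with vehicle and 2.04, 0.803, 1.99 and 2.26 CPM with bilirubin, from 29 to 91 counts in a library. In mice 1, 3 and 4 the bilirubin culture was above all vehicle cultures, and in mouse 2 it was below all of them. The log2 fold change of 0.70 ± 0.38 (SE) had an adjusted p of 0.359 in edgeR's quasi-likelihood test. Without mouse 2 it was 1.20 and passed (edgeR, adjusted p = 0.0385), and with an offset for transcript length it was 0.45 (edgeR, adjusted p = 0.568). Without mouse 1, 3 or 4 it was 0.50, 0.54 and 0.51 and did not pass (edgeR, adjusted p = 0.479, 0.683 and 0.694).

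*Ms4a4b*, which encodes a T cell protein that associates with the costimulatory receptor GITR, was near the limit of detection, with 7 to 13 counts in a library. The means were 0.248 ± 0.042 CPM with vehicle and 0.254 ± 0.064 CPM with bilirubin (SD, n = 4 each). The log2 fold change was 0.02 ± 0.38 (SE), so that a difference of the size seen for *Ms4a7* was not detectable at this depth. Its reads and those of *Ms4a4c* could not be fully told apart.

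**Figure D4:**
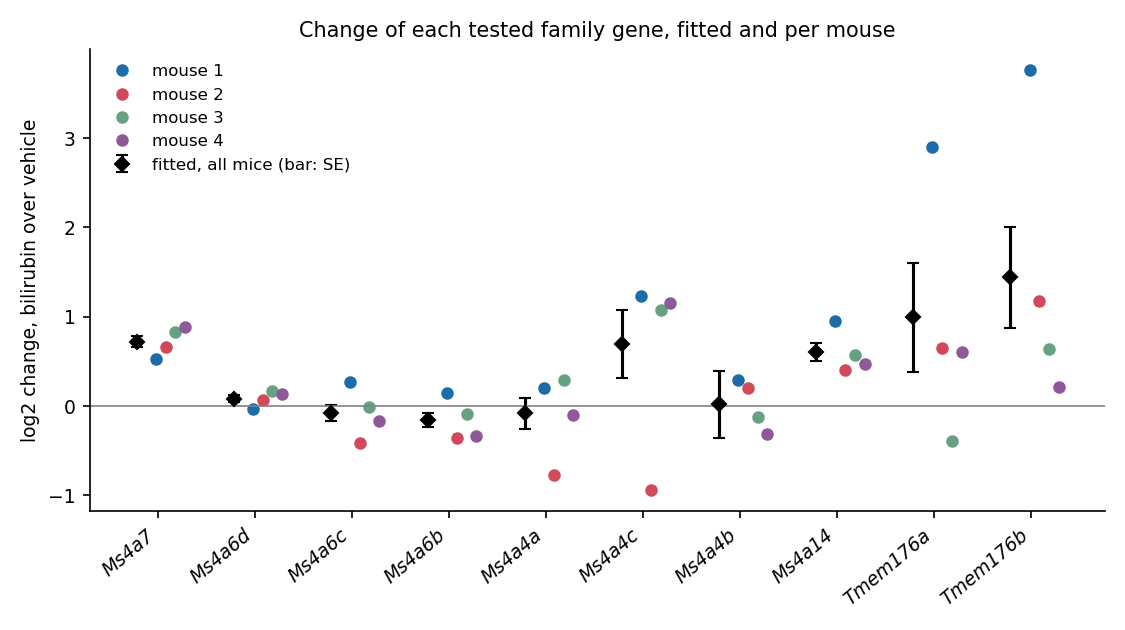
Log2 change (bilirubin over vehicle) of the 7 members, *Ms4a14*, *Tmem176a* and *Tmem176b*. Black diamonds are the fitted change with its SE and colored points are the 4 mice. The 4 points of *Ms4a7* lie between 0.52 and 0.88, those of *Ms4a6d* near 0, and those of *Ms4a4c* split into 3 mice above 1 and mouse 2 below 0.

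The change of *Ms4a7* was set directly against that of each other member within each mouse. It was larger than that of *Ms4a6d* by 0.64 ± 0.08 on the log2 scale, of *Ms4a6b* by 0.88 ± 0.36, of *Ms4a6c* by 0.80 ± 0.38, of *Ms4a4a* by 0.82 ± 0.49 and of *Ms4a4b* by 0.71 ± 0.44 (SD, n = 4 mice each). For these 5 members the difference was in that direction in 4 of 4 mice, and the exact two-sided sign-flip p was 0.125, the smallest that 4 pairs can give, so that this test cannot reach 0.05 here and decides nothing about these differences. For *Ms4a4c* the difference was 0.09 ± 1.03, larger in 1 of 4 mice, with an exact sign-flip p of 1.

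Of 16 other family genes, 13 had at most 4 counts in every library and were not tested. They include *Ms4a1*, with at most 1 count, and *Ms4a2*, at 0 in all libraries. The 3 tested genes were *Ms4a14* and the related *Tmem176a* and *Tmem176b*, which encode membrane proteins of myeloid cells and lie outside the cluster. *Tmem176b* was at 0.147, 0.45, 0.573 and 0.682 CPM with vehicle and at 2.62, 1.08, 0.922 and 0.796 CPM with bilirubin, higher in 4 of 4 mice and with no overlap, but on 7 to 91 counts. Its log2 fold change was 1.44 ± 0.57 (SE), with an adjusted p of 0.197 in edgeR's quasi-likelihood test, and that of *Tmem176a* was 0.99 ± 0.61, with an adjusted p of 0.423. Without mouse 1 these were 0.70 and 0.31. *Tmem176b* passed where low counts were not filtered, with an adjusted p of 0.00237 in the same edgeR test.

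Proteins that act with MS4A proteins form a list of 15 genes, of which 12 were tested. Of these, 2 rose and 1 fell in edgeR's quasi-likelihood test, beside 7.53% of all genes called in either direction. An unadjusted p under 0.05 was found for 8 of the 12, beside 20.8% of all genes, and the median log2 fold change was -0.06. *Adam17*, a protease that sheds TREM2 and other surface proteins, rose by 0.41 ± 0.04 (SE, adjusted p = 6.04e-04 in that edgeR test). *Syk*, the kinase downstream of Dectin-1 and other immune receptors, rose by 0.22 ± 0.03 (adjusted p = 0.00536), and *Fcer1g*, the common Fc receptor gamma chain, fell by 0.14 on the log2 scale (adjusted p = 0.0274, both in edgeR). The other 9 tested genes, among them *Trem2*, *Tyrobp*, *Clec7a*, *Cd9*, *Cd63* and *Cd81*, did not pass. *Fcer1a*, *Vsig4* and *Tnfrsf18*, which encode a chain of the IgE receptor, the partner of *Ms4a6d* and GITR, were too low to test. The count of 3 became 1 without mouse 3, 1 without mouse 4, and 2 without mouse 2.

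Since several members are known to respond to interferon, 31 type I interferon genes were examined, of which 30 were tested. In edgeR's quasi-likelihood test 0 of 30 passed, beside 7.53% of all genes called in either direction. An unadjusted p under 0.05 was found for 11, beside 20.8% of all genes, and all 30 log2 fold changes were positive, with a median of 0.43. DESeq2 called 2 of them, limma-voom 1 and limma-trend 1. The lowest adjusted p in edgeR were those of *Cxcl10*, a chemokine (log2 fold change 0.68, adjusted p = 0.0566), and *Oasl1*, an antiviral protein (0.73, adjusted p = 0.0716). The median within mice 1 to 4 was 1.21, -0.21, 0.36 and 0.25. Without mouse 1 the count was 4, and without mouse 2 it was also 4. Over all tested genes, those called higher went from 616 to 1026 and 419 in these settings. *Ms4a4c*, like the list, was below 0 in mouse 2 alone, with 1.23, -0.94, 1.08 and 1.16, whereas *Ms4a7* was above 0 there and was lowest in mouse 1, in which the list was highest.

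*Ms4a7* is used as a marker of resident macrophages, so 20 genes of resident-like macrophages were set beside it, of which 17 were tested. In edgeR's quasi-likelihood test 8 of 17 fell, beside 3.04% of all genes, and 0 rose, with a median log2 fold change of -0.44, opposite in sign to that of *Ms4a7*. The strongest by p were *Apoe*, a lipid carrier, which fell by 0.96 on the log2 scale (adjusted p = 1.02e-04), *Pf4*, a chemokine, by 0.54 (adjusted p = 5.43e-04), and *Gas6*, a bridging ligand for apoptotic cells, by 1.07 (adjusted p = 0.00114, all in edgeR). Others that fell included *Folr2*, *Selenop*, *Fcrls* and *F13a1*. DESeq2 called 7 of the list, limma-voom 7 and limma-trend 8. In edgeR 12 had an unadjusted p under 0.05, beside 20.8% of all genes, and all 17 log2 fold changes were negative. The median within mice 1 to 4 was 0.06, -0.83, -0.33 and -0.73. The count of 8 was 15 without mouse 1 and 4 without mouse 2, without mouse 3 or without mouse 4. Over all tested genes, those called lower went from 417 to 884, 215, 112 and 139 without mouse 1, 2, 3 and 4. *Ms4a6b* and *Ms4a6c* had the same signs as this list within mice, above 0 in mouse 1 and below 0 in the other 3.

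**Figure D5:**
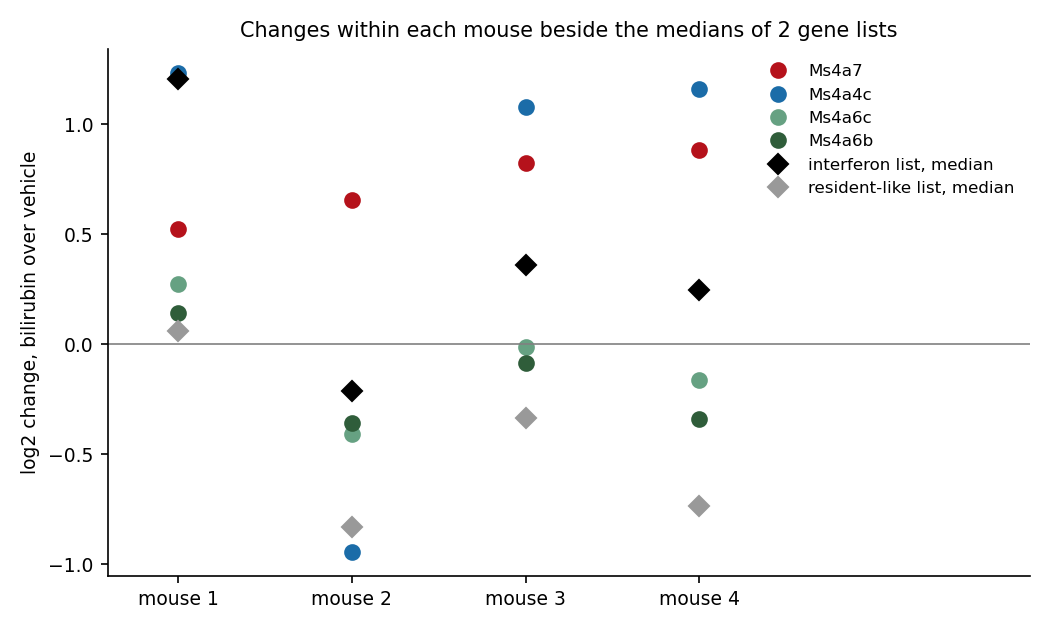
Log2 change (bilirubin over vehicle) within each mouse of *Ms4a7*, *Ms4a4c*, *Ms4a6c* and *Ms4a6b* (circles) and the median of the interferon and resident-like gene lists (diamonds). *Ms4a7* is above 0 in all 4 mice, *Ms4a4c* and the interferon median are below 0 in mouse 2, and *Ms4a6b*, *Ms4a6c* and the resident-like median are above 0 in mouse 1 alone.

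For each member the genes with the most similar pattern outside the family were taken by Pearson r of log2 CPM over the 8 libraries. For *Ms4a7* they were *Ccl5*, a chemokine, *Prdx5*, an antioxidant peroxidase, and *Supv3l1*, a mitochondrial RNA helicase, each with an r of 0.992. *Ms4a6b* was closest to *Mrc1*, the mannose receptor (r = 0.992), to *Slc16a7* (0.985) and to *Emilin2* (0.981), and *Ms4a6c* to *Nudt16l1* (0.985), to the chemokine *Ccl6* (0.981) and to *Maged1* (0.972). *Ms4a6d* was closest to *Ppp1r2-ps2* (r = 0.977), *Rock2* (0.963) and *Bud13* (0.956). *Ms4a4a* was closest to *Ap4m1* (0.979), *Samd14* (0.973) and *Vamp3* (0.971), *Ms4a4c* to *Gm50012* (0.983), *Sdhc* (0.956) and *Nlrp1b* (0.954), and *Ms4a4b* to *Map7d3* (0.964), *G2e3* (0.948) and *Bank1* (0.93). These are the highest r among all tested genes over libraries that share mice and treatment, and they are given as a description.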

How the data were processed

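RNA of the 8 cultures was poly(A)-selected and sequenced. The authors trimmed reads with Trim Galore 0.6.7 and Cutadapt 3.4, aligned them with STAR 2.7.9a to GRCm39 and quantified transcripts with Salmon 1.10.1, per the labels' processing notes. They deposited estimated (expected) counts per gene, with no scaling, and per library the estimated counts and TPM of each transcript. Whether counting used strand is not given in the sources used here. Reads of BALB/cJ mice were set against a reference of another strain, which may affect near-identical genes.

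Rounded counts entered edgeR 4.0.16 (R 4.3.3), with TMM scaling, filterByExpr (minimum count 10, minimum total 15), a model of mouse and treatment, the quasi-likelihood test and Benjamini-Hochberg adjustment over all 13722 tested genes at a threshold of 0.05. CPM within mice used a prior count of 2 for log2 values. Cultures were paired because the labels give each a mouse pair number, and the study's methods use the mouse as a covariate. The deviations of both cultures of a mouse from their group means had correlations of 0.108, 0.134, 0.108 and -0.0053. Between different mice the highest was 0.0751. Their mean of -0.0279 is tied to the values within mice by the use of group means, so it adds no evidence on pairing. Each group had 1 culture per mouse and the model holds a mouse term. The p-values of the main fit thus rest on how the change within mice varied over 4 pairs, but not on this alone. The quasi-likelihood test also draws the spread of each gene toward a trend over all tested genes. Each SE of a fitted log2 fold change was derived from that change and its test statistic. On simulated data the fit recovered most changed genes with a share of false calls above the nominal threshold.

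Members and gene lists were chosen with earlier results of these data known. Genes named are the 7 members, family genes that were tested, the 3 genes of each other list with the lowest adjusted p, the 3 genes most similar to each member, and isoforms with at least 10% of a gene's TPM. Other genes named (the remaining list genes, *BE692007*, markers) were chosen after their values were seen. The results of some single genes are not reported here. Of the interferon list, *Rigi* was not found under that symbol. Alternatives were no mouse term, DESeq2 1.42.0, limma 3.58.1 (voom and trend), other scaling, other filters, omitting each mouse, and a transcript-length offset. Coding sequences and exons came from GRCm39 with GENCODE M39, in which all 27 transcripts of the members were found, and were aligned with Biopython 1.88. Protein sequences were not used here.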

Additional observations from a re-analysis of the deposited data

Results flagged for a closer look

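In groups of 4 values, 3 of 30 groups examined held a value that lay far from the other 3 by Dixon's criterion, where chance alone gives about 1 in 20. The log2 change of *Ms4a4c* in mouse 2 was -0.943, beside 1.08 to 1.23 in the other mice. The bilirubin culture of mouse 1 had 188 CPM of *Ms4a6d*, beside 196 to 198 CPM in the other bilirubin cultures. The same culture had 2.62 CPM of *Tmem176b*, beside 0.796 to 1.08 CPM in the others.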

How the results depend on the processing

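*Ms4a7* passed under all 13 alternatives, and the adjusted p (edgeR, DESeq2 or limma) lay between 3.9e-27 and 0.00724. *Ms4a14* passed under 12 of 13 and not without mouse 3 (adjusted p = 0.0667 in edgeR). The number of genes passing moved from 1033 to 686 without the replicate block of the mouse, where 1 member still passed, to 1692 with no filter and to 575 with a length offset, and from 377 to 1910 when 1 mouse was left out. Leaving out 1 mouse gave 1 to 3 members, 0 to 1 other family genes, 1 to 4 partner genes, 0 to 4 interferon genes and 4 to 15 resident-like genes. With no filter the counts were 2 other family genes, 6 partner, 25 interferon and 13 resident-like genes. DESeq2 gave 2 interferon genes, limma-voom 1, limma-trend 1 and the length offset 1, and the length offset gave 4 resident-like genes. The block changed no call among the members. The sign turned for *Ms4a4a* without mouse 2 (range over mice left out -0.21 to 0.13) and for *Ms4a6c* without mouse 2 (-0.20 to 0.033). It also turned for *Ms4a4b* with library size alone (-0.0046), without mouse 1 (-0.11) and without mouse 2 (-0.05, range to 0.15). *Ms4a6b* kept its sign under all 13 alternatives. The sum of *Ms4a6b*, *Ms4a6c* and *Ms4a6d* (0.011) is a different quantity, to which *Ms4a6d* gives the most counts. Its sign is thus not a further estimate for *Ms4a6b* or *Ms4a6c*. The cause of the differences between settings was not tested. A filter of CPM above 1 in 4 libraries left *Ms4a4b* out, and its 7 to 13 counts limit what can be seen of it.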
